A study of Homo sapiens with 402 samples.

Results

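Thiram at 0.025, 0.25 and 2.5 µM was studied in 12 of the 402 libraries of the series, 4 libraries at each dose. The libraries were chosen by their treatment and dose labels on 1 plate of 95 libraries that share a plate barcode. Their reference was the 15 libraries of the same plate that received the solvent DMSO alone. All 27 were wild-type MCF10A cells, a human breast epithelial line that does not form tumours, exposed for 48 h, and none carried an engineered allele. The labels call the 4 libraries of a dose biological replicates, and all were 1 line grown at a single stated passage, so p-values measure the spread between wells of this line. The same plate held thiram at 25 µM, which is used here only as a point of comparison, and 4 other chemicals (DCB_14, DCP_25, PCB153 and PCB187) at the same doses. The series tests many environmental chemicals over a range of doses, and these comparisons ask at which dose of thiram transcription departs from solvent.

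Thiram is a dithiocarbamate fungicide, the disulfide of dimethyldithiocarbamate. Its reduced form binds copper and zinc, and the disulfide reacts with protein thiols, among them the active-site cysteine of aldehyde dehydrogenases. Cells answer excess metal through MTF1, which drives metallothioneins and the zinc exporter SLC30A1. Damaged or misfolded protein is answered through HSF1, which drives chaperones such as HSPA6. Electrophiles act through NRF2 on genes such as HMOX1 and NQO1, and arrest of translation initiation acts through ATF4 on genes such as TRIB3 and CHAC1.

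Each library held a count for each of 34718 gene symbols, of which 21307 were abundant enough to test. The 12 thiram libraries held 7853052 to 18632791 counts. The 8 controls numbered 49 to 56 held 15124358 to 22496904 counts and the 7 numbered 57 to 64 held 2313091 to 4734045, so a low gene rests on few reads in the latter. Levels are given as CPM, counts scaled to the size of the library and therefore comparable between libraries, but not between genes of unequal length. Replicates 1 and 2 of each dose were set beside controls 49 to 56 (the lower-numbered set) and replicates 3 and 4 beside controls 57 to 64 (the higher-numbered set), with the set as a term of the fit. The labels name no batch, and this split follows the numbers alone. The label of breast epithelium matched the markers: all 10 basal epithelial markers were detected in every group, with a summed level of 2950 to 4450 CPM in controls and 3000 to 5420 CPM in the 12 thiram libraries. Of 7 general epithelial markers KRT19 was at 0 in all libraries of 0.025 and 0.25 µM, and the other 6 were detected in every group. PGR among the luminal hormone-responsive markers, COL1A2 among the fibroblast, CDH5 and VWF among the endothelial and CD3E among the immune markers were at 0 in every group. Of these lists, 3 of 5 luminal, 3 of 6 fibroblast, 2 of 5 endothelial and 2 of 5 immune markers were abundant enough to test. The summed luminal level was 4.24 to 40.6 CPM in controls and 18.4 to 37.7 CPM with thiram. The summed endothelial level was 0 to 9.4 CPM in controls and 0.327 to 6.25 CPM with thiram, the immune 18.7 to 58.4 and 17.4 to 47 CPM, the fibroblast 29.4 to 78.7 and 21.2 to 61.2 CPM, and the adipocyte under 1 CPM. In bulk libraries fewer cells of a type and less RNA per cell cannot be told apart.

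Few genes passed the test at the 3 lower doses, and most of those that did were at 2.5 µM. At 0.025 µM no gene passed an adjusted p of 0.05 in edgeR's quasi-likelihood test with Benjamini-Hochberg adjustment (percent called 0). There 878 genes (4.12% of those tested) had an unadjusted p under 0.05. DESeq2 called 1 gene at this dose, STAT3. At 0.25 µM 2 genes passed, both higher (0.00939% of genes tested), with 1019 (4.78%) at an unadjusted p under 0.05 and 1 call by DESeq2. At 2.5 µM 11 genes passed, all higher (0.0516%), with 998 (4.68%) at an unadjusted p under 0.05. For the unadjusted p, all 3 shares were below 0.05, the share that the threshold would pass with no effect. These shares of all genes stand beside the counts of list members below. DESeq2 called 4 genes at 2.5 µM, 3 higher and 1 lower, and the 3 (ARC, GNAS and THBS1) are among the 11. DESeq2 did not call HSPA6 (log2 fold change 3.95, adjusted p 0.396), ATF3 (4.97, 0.485), SLC30A1 (0.63, 0.276), IGFBP7 (0.55, 0.107), or CRYAB, GADD45G and RASD1 (3.19, 3.26 and 4.16, each with an adjusted p of 1). Counts of list members below are from edgeR's fit over both sets. The other 4 chemicals gave 0 to 96 calls in their 12 groups at the same 3 doses against the same controls, with a median of 1.5 and a second highest of 4. At 25 µM thiram gave 5579 calls (26.2%). Directly against 2.5 µM, the highest dose gave 4535 calls, 2291 higher and 2244 lower (21.3%), and this comparison uses no control library.

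Of 25 heat shock genes tested 2 were called at 2.5 µM, HSPA6 and CRYAB. HSPA6 encodes a strictly inducible member of the HSP70 family that is nearly silent in unstressed cells. At 2.5 µM its level was 0.572, 1.65, 13.9 and 47.6 CPM in replicates 1 to 4. The 15 controls ran from 0 to 4.76 CPM with a median of 0.334. Replicates 3 and 4 lay above every control, while replicates 1 and 2 lay inside the control range. HSPA6 rose by 4.04 on the log2 scale (SE 0.467, adjusted p 5.52e-11, edgeR). At 0.25 µM HSPA6 stood at 1.79, 0.877, 0 and 0.172 CPM, and at 0.025 µM at 0, 0.172, 1.18 and 0.479 CPM, all within the control range. HSPA7, a near-identical copy whose reads the counting could share with HSPA6, was listed at 0 in the controls and at all 3 lower doses.

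The sequence before HSPA6 is shown because HSPA6 is a textbook HSF1 target and rose at 2.5 µM. The 250 bases before the HSPA6 start lie on chromosome 1 of GRCh38.p14, plus strand, chr1:161524290-161524539 (RefSeq), and the capitals mark the heat shock element cores:
HSPA6: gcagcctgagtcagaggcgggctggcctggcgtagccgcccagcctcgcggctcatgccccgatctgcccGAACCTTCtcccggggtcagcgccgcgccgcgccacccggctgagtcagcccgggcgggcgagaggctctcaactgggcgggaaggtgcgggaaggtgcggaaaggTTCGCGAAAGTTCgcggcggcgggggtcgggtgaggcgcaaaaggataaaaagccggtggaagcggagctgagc
The window holds the core GAANNTTC 2 times, starting 180 and 69 bases before the start, and the core TTCNNGAA 1 time, 74 bases before it, where the last pair overlap. Both cores read the same on either strand. One or the other core is in 11.6% of 35116 such windows of the genome (GAANNTTC in 5.78% and TTCNNGAA in 6.62%). Of the 11 genes called at 2.5 µM, 7 had a window in the RefSeq table, and HSPA6 was the only one of those 7 with either core. These matches describe letters, and binding was not measured.

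CRYAB, a small heat shock protein that holds unfolded proteins in solution, stood at 0.468, 1.5, 4.2 and 18.1 CPM in replicates 1 to 4 at 2.5 µM. The controls ran from 0 to 6.06 CPM, and 10 of the 15 were at 0. Only replicate 4 lay above every control, and CRYAB rose by 4.23 on the log2 scale (SE 0.691, adjusted p 3.49e-05, edgeR). Of all genes 0.0516% were called higher at 2.5 µM, and the median log2 fold change of the 25 heat shock genes was 0.03 beside −0.01 for all genes. The abundant chaperones did not pass. The HSP70 co-chaperone gene DNAJB1 was at 159, 148, 183 and 224 CPM against 112 to 184 CPM in controls, with a log2 fold change of 0.22 (95% interval 0.05 to 0.39, adjusted p 0.98, edgeR). HSPA1A, the major inducible HSP70 gene, was at 27.6, 18.5, 36.1 and 41.3 CPM against 17.6 to 34.3 CPM, and its fold change of 0.19 on the log2 scale had an interval of −0.10 to 0.49. HSPA1A and HSPA1B are near-identical, so their counts may be split between them. At 25 µM 22 of the 25 heat shock genes were called higher (13.8% of all genes).

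ARC rose most at 2.5 µM, and ATF3, GADD45G and RASD1 rose with it from levels near 0. ARC, an activity-regulated gene whose product shapes the cytoskeleton and which signalling through ERK switches on within minutes, was almost undetected in controls, with 8 counts in all over 15 libraries and a highest level of 0.255 CPM. At 2.5 µM ARC stood at 5.97, 1.97, 6.16 and 16.8 CPM. All 4 libraries lay above all 15 controls. ARC rose by 7.09 on the log2 scale (SE 0.826, adjusted p 2.26e-09, edgeR), a fitted fold that rests on those 8 control counts. ARC was called in each of 14 alternative analyses. One library at 0.025 µM, replicate 2, held 1.03 CPM of ARC, the other three were at 0, and at 0.25 µM the levels were 0.0548 to 0.123 CPM.

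**Figure D1:**
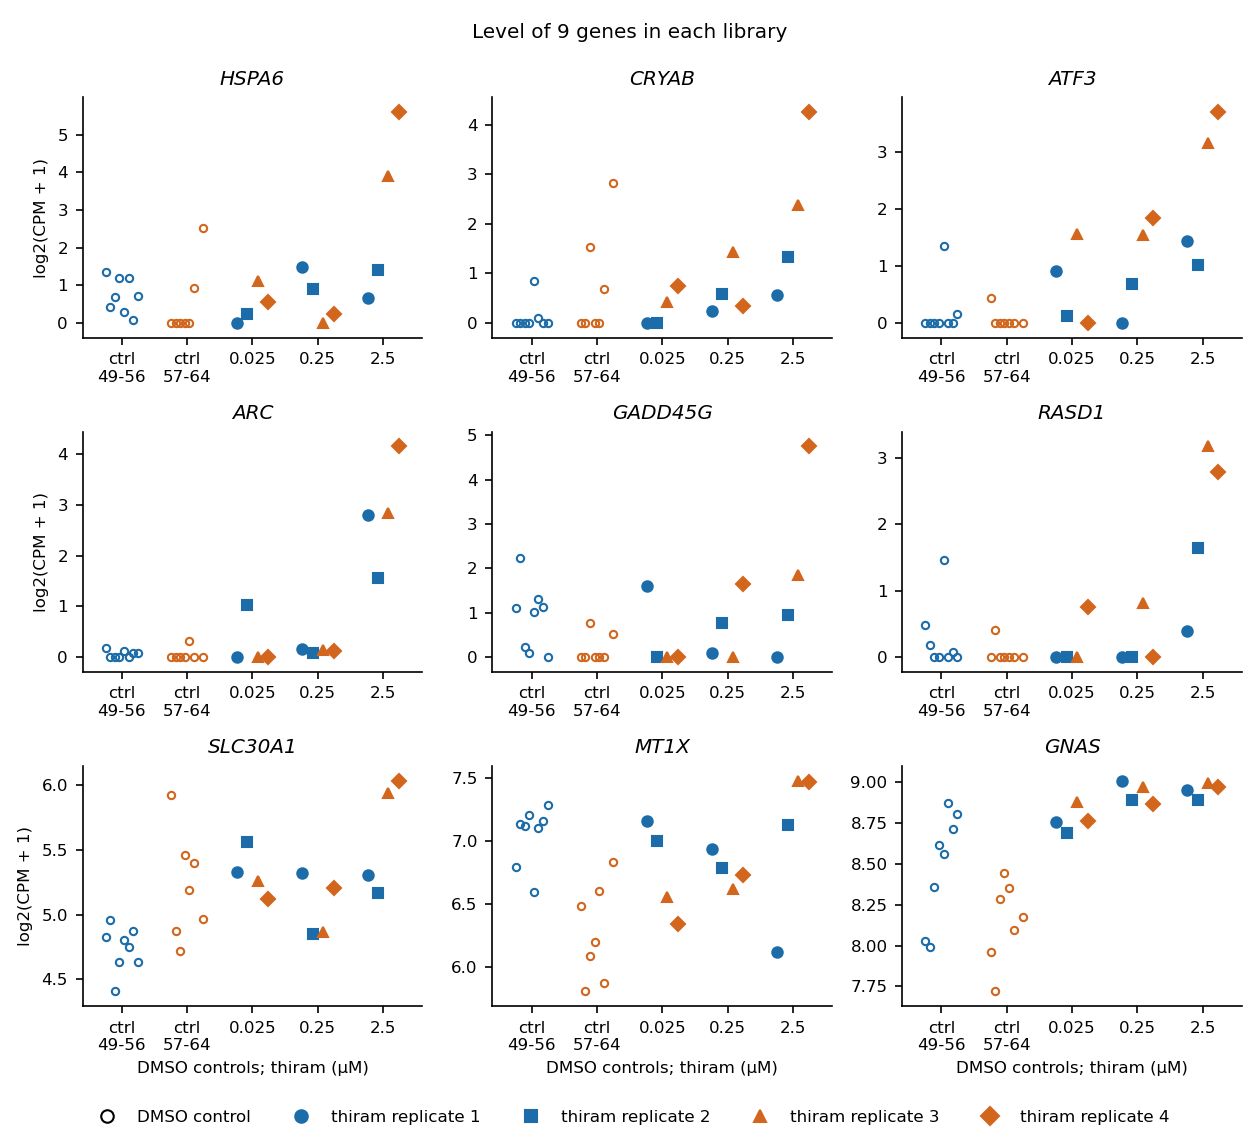
Level of 9 genes, as log2(CPM + 1), in each DMSO control (open circles, by set) and each thiram library at 0.025, 0.25 and 2.5 µM (symbols by replicate, blue for the lower-numbered set and orange for the higher-numbered set). ARC is above every control in all 4 libraries at 2.5 µM, while for HSPA6 and ATF3 the orange symbols of replicates 3 and 4 stand well above the blue ones.

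ATF3, a stress-induced transcription factor downstream of ATF4 and of stress kinases, was at 1.72, 1.02, 7.93 and 11.9 CPM at 2.5 µM, against 0 to 1.54 CPM in controls, 12 of them at 0. Replicates 1, 3 and 4 lay above every control and replicate 2 did not. ATF3 rose by 3.97 (log2, SE 0.701, adjusted p 0.000268, edgeR). At 0.25 µM ATF3 stood at 0, 0.603, 1.89 and 2.59 CPM and at 0.025 µM at 0.889, 0.0861, 1.94 and 0 CPM. Its log2 fold change at 0.25 µM, 1.80 (95% interval −0.28 to 3.89), did not pass, nor did that at 0.025 µM (−1.38 to 3.39).

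GADD45G, a growth-arrest gene that activates the p38 and JNK kinase pathway, was at 0, 0.945, 2.61 and 26 CPM at 2.5 µM, beside 0 to 3.74 CPM in controls. Replicate 4 alone lay above the control range. GADD45G rose by 2.54 (log2, SE 0.532, adjusted p 0.0107, edgeR), but without that library the fold change was −0.05. RASD1, a small Ras-related GTPase first known as a dexamethasone-induced gene, was at 0.312, 2.13, 8.02 and 5.88 CPM against 0 to 1.77 CPM, so that replicates 2, 3 and 4 exceeded every control, and RASD1 rose by 3.46 (SE 0.783, adjusted p 0.0365, edgeR). ARC and ATF3 were the 2 of 30 immediate early and ERK feedback genes called. The list's median log2 fold change was 0.06, and 7 of the 30 had an unadjusted p under 0.05, beside 4.68% of all genes. The AP-1 subunit gene FOSB was at 0.675, 0.394, 1.21 and 0.899 CPM, above all 15 controls (highest 0.121 CPM), yet its fold change of 3.92 (SE 1.62) did not pass (adjusted p 0.98, edgeR).

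Secreted and matrix genes that passed at 2.5 µM had smaller fold changes, from higher control levels. THBS1, the matrix glycoprotein thrombospondin, was at 240, 183, 346 and 423 CPM against 144 to 293 CPM, and rose by 0.45 (log2, SE 0.091, adjusted p 0.00606, edgeR). Replicates 3 and 4 were above every control and replicates 1 and 2 were not. IGFBP7, a secreted binding protein of insulin-like growth factors, rose by 0.54 (SE 0.119, adjusted p 0.0281, edgeR) from a control mean of 59.4 ± 11.4 CPM (SD, n = 15) to 90.1 ± 11.7 CPM (SD, n = 4). THBS1 was among the 2 of 30 matrix and adhesion genes tested that were called, and the list's median log2 fold change was 0.14 at 2.5 µM, 0.18 at 0.25 µM and 0.00 at 0.025 µM, beside medians of all genes between −0.02 and −0.01.

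GNAS, which encodes the stimulatory G protein alpha subunit, was the one gene called at both 0.25 and 2.5 µM. It was at 515, 474, 501 and 465 CPM at 0.25 µM and at 494, 475, 509 and 501 CPM at 2.5 µM, against 210 to 468 CPM in controls, with a median of 326. At 0.025 µM it was at 432, 412, 470 and 433 CPM. GNAS rose by 0.53 at 0.25 µM (log2, SE 0.085, adjusted p 0.000163, edgeR) and by 0.55 at 2.5 µM (SE 0.086, adjusted p 1.98e-05). The 48 libraries of the other 4 chemicals at the 3 lower doses had GNAS at 367 to 551 CPM, a range that holds all 12 thiram libraries and overlaps only the upper end of the controls.

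Among metal-handling genes 1 was called at 2.5 µM, the zinc exporter gene SLC30A1, and no metallothionein gene was. SLC30A1, which pumps zinc out of the cell and is a classical MTF1 target, was at 38.5, 35, 60.3 and 64.5 CPM at 2.5 µM against 20.2 to 59.7 CPM in controls. Replicates 3 and 4 were above every control, and SLC30A1 rose by 0.74 (log2, SE 0.148, adjusted p 0.00606, edgeR). At 0.025 µM it was at 39.3, 46, 37.4 and 33.7 CPM, and at 0.25 µM at 39, 27.8, 28.1 and 36 CPM. The fold changes there were 0.41 (95% interval 0.09 to 0.73) and 0.19 (−0.13 to 0.51), neither past the threshold. SLC30A1 was the 1 of 24 copper and zinc transport genes called at 2.5 µM, with a list median of −0.07.

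Of 11 metallothionein genes and their activator MTF1, 8 were abundant enough to test. None of the 8 was called at any of the 3 doses in edgeR's fit over both sets. At 2.5 µM 2 had an unadjusted p under 0.05, and 0 did at the other doses. MT1B had the lowest log2 fold change of the 8 at 0.025 µM, −0.71, and the highest at 0.25 and 2.5 µM, 3.14 and 4.86. The medians of the metallothionein list were −0.11, −0.04 and 0.11 on the log2 scale as dose rose. MT2A, the most abundant of these metal-binding proteins in the cells, was at 8687, 13380, 17570 and 17570 CPM at 2.5 µM, against 9047 to 15780 CPM in controls. Replicate 1 was below every control and replicates 3 and 4 were above every control. MT1X was at 68.6, 139, 178 and 177 CPM against 54.9 to 156 CPM, again with replicate 1 lowest and replicates 3 and 4 above every control. Their fold changes over the 4 libraries were 0.06 (95% interval −0.14 to 0.25) and 0.30 (−0.001 to 0.595), and did not pass. The copper importer gene SLC31A1 and the copper exporter gene ATP7A did not pass either, with log2 fold changes of −0.10 (interval −0.34 to 0.14) and −1.17 (−2.03 to −0.31, adjusted p 0.95, edgeR). Within the higher-numbered set alone MT2A was called at each dose, with log2 fold changes of 0.32 at 0.025 µM (adjusted p 0.039, edgeR), 0.43 at 0.25 µM (0.000113) and 0.48 at 2.5 µM (7.86e-07). At 25 µM 6 of the 8 metallothionein list genes were called higher, beside 13.8% of all genes. The log2 fold changes of the 8 against controls ran there from 0.06 for MT2A to 13.25 for MT1B.

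NRF2 targets showed no call at any of the 3 doses among 39 tested, with 0, 4 and 5 at an unadjusted p under 0.05 as dose rose and list medians of 0.02, −0.04 and 0.00. HMOX1, the heme-degrading enzyme, was at 6.7, 9.45, 9.61 and 18.8 CPM at 2.5 µM against 0.236 to 10.7 CPM in controls, and only replicate 4 was above them. Its log2 fold change was 0.65 with an interval of −0.11 to 1.40. NQO1, a quinone reductase, was at 822, 726, 843 and 886 CPM against 705 to 892 CPM, fully inside the control range, and the interval of its log2 fold change was −0.17 to 0.25. TXNRD1, thioredoxin reductase, had an interval of −0.33 to 0.17. At 25 µM 22 of the 39 were called higher, beside 13.8% of all genes, and 4 lower, beside 12.4%.

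Of 27 ATF4 targets tested ATF3 was the 1 called, and only at 2.5 µM, with a list median of 0.08. TRIB3, a pseudokinase that feeds back on ATF4, was at 113, 100, 152 and 185 CPM against 88.9 to 127 CPM, with replicates 3 and 4 above every control, and a fold change of 0.34 (interval 0.12 to 0.55, adjusted p 0.798, edgeR). CHAC1, which degrades glutathione, was at 2.49, 0, 3.73 and 2.7 CPM against 0 to 3.78 CPM. None of 20 endoplasmic reticulum chaperone genes was called at any of the 3 doses in edgeR's test, and their median at 2.5 µM was 0.10, with 1 at an unadjusted p under 0.05.

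Aldehyde dehydrogenase genes, 12 tested, gave no call in edgeR's fit over both sets at any of the 3 doses (1, 1 and 0 at an unadjusted p under 0.05). ALDH3A1, which oxidises aromatic and medium-chain aldehydes, was at 29.4, 30.9, 22.1 and 27.7 CPM at 0.25 µM, below all 15 controls (35.7 to 78.8 CPM). Its log2 fold change of −0.72 (SE 0.197, adjusted p 0.458, edgeR) did not pass over both sets. Within the higher-numbered set ALDH3A1 passed (−1.22, adjusted p 0.00987, edgeR) and within the lower-numbered set it did not (−0.53, adjusted p 1). At 2.5 µM it was back at 35.5 to 39.3 CPM, near the lower edge of the controls. The other 4 chemicals had ALDH3A1 at 16.2 to 67.4 CPM. AKR1C2, an aldo-keto reductase, was at 113, 126, 78.6 and 73.7 CPM at 0.25 µM against 70.8 to 232 CPM, and its fold change of −0.75 (interval −1.27 to −0.24) did not pass over both sets. AKR1C2 passed within the lower-numbered set (−0.77, adjusted p 5.52e-05, edgeR) and not within the higher-numbered set (−0.70, adjusted p 0.667).

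**Figure D2:**
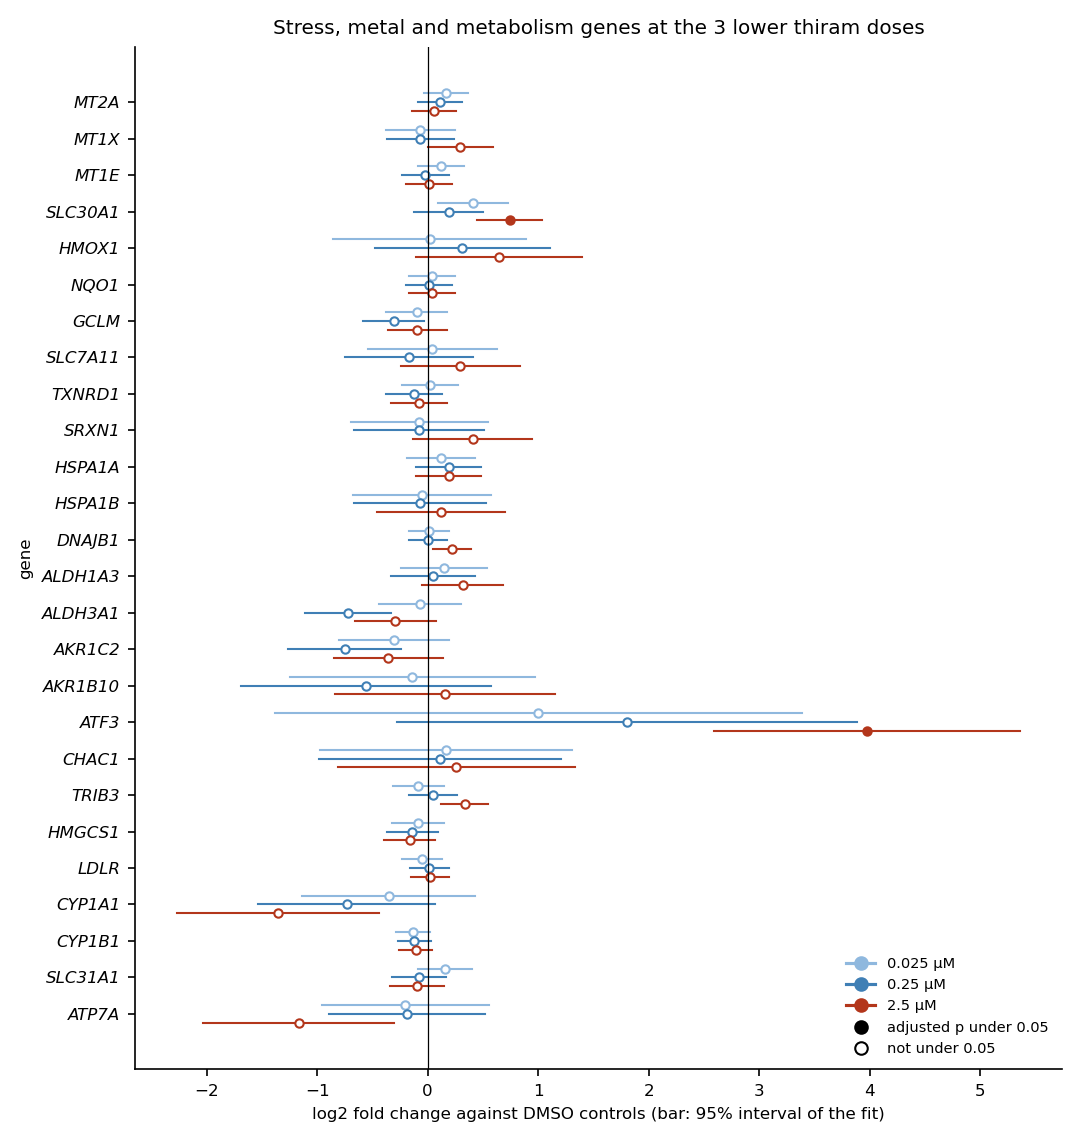
Log2 fold change against DMSO controls, with the 95% interval of the fit, for 26 genes of metal, oxidative, heat shock, ATF4, aldehyde, sterol, aryl hydrocarbon and copper biology at 0.025, 0.25 and 2.5 µM. Filled points have an adjusted p under 0.05, and these are SLC30A1 and ATF3 at 2.5 µM.

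None of 30 mitosis genes, 34 DNA replication genes, 25 p53 targets, 39 proteasome and ubiquitin genes, 32 sterol and fatty acid genes or 13 mitochondrially coded genes was called at any of the 3 doses in edgeR's test. At 2.5 µM their median log2 fold changes were −0.01, 0.02, 0.01, 0.06, −0.05 and −0.01, with 1, 1, 2, 3, 1 and 2 members at an unadjusted p under 0.05. None of 10 aryl hydrocarbon receptor targets passed, with a median of −0.12 at 2.5 µM. CYP1A1, the classical target, was at 3.12, 0.551, 1.31 and 4 CPM against 1.67 to 20.8 CPM, and its fold change was −1.36 (interval −2.27 to −0.44, adjusted p 0.854, edgeR). None of 24 interferon-stimulated genes and none of 29 inflammatory and acute phase genes was called at any of the 3 doses in edgeR's test, with 0 and 4 at an unadjusted p under 0.05 and medians of −0.08 and 0.07 at 2.5 µM. Squamous differentiation genes had the lowest list median of the 20 lists at 0.025 µM, −0.53, with 0 of 24 called and 4 at an unadjusted p under 0.05. The median was −0.08 at 0.25 µM and 0.02 at 2.5 µM.

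At 0.25 µM the second called gene was CA9, a hypoxia-induced carbonic anhydrase. It was at 9.68, 9.26, 1.14 and 8.54 CPM against 0 to 7.39 CPM in controls. Replicates 1, 2 and 4 were above every control and replicate 3 was not. CA9 rose by 1.84 (log2, SE 0.386, adjusted p 0.0457, edgeR), and was at 5.3, 5.04, 0 and 1.23 CPM at 2.5 µM, where it did not pass. CA9 was called in 5 of 13 alternative analyses, and not against the other 4 chemicals. It was the 1 of 34 glycolysis and hypoxia genes called at this dose, with a list median of 0.04. Of the 34, 9 had an unadjusted p under 0.05, beside 4.78% of all genes. The other genes with the smallest p at this dose and an average log2 CPM of at least 3 included TGFBI (0.25), EAPP (−0.64) and MPV17L2 (−0.58). Their adjusted p-values of 0.257 to 0.331 in edgeR's test did not pass.

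At 0.025 µM the 5 genes with the smallest p at that level were MTX3 (1.06), STAT3 (−0.35), GNAS (0.37), PLCB4 (0.77) and UBA7 (0.80), with adjusted p-values of 0.301 to 0.989 in edgeR's test. STAT3, the cytokine-activated transcription factor, was at 142, 142, 143 and 131 CPM against 112 to 204 CPM in controls, so that all 4 libraries lay within the control range. MTX3, a part of the mitochondrial import machinery, was at 16.9, 8.44, 13.9 and 19.2 CPM against 1.68 to 12 CPM.

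Genes were also counted without a model, and the share expected from the order of the libraries alone was not worked out. All 4 libraries lay above the 15 controls for 4 genes at 0.025 µM (0.0188% of genes), 6 at 0.25 µM (0.0282%) and 12 at 2.5 µM (0.0563%), and below them for 1 (0.00469%), 3 (0.0141%) and 1 (0.00469%). At 25 µM the numbers were 981 (4.6%) and 735 (3.45%). Those above at 2.5 µM were ARC, GNAS, FOSB, IL32, CXCL8, TINF2, MFSD14C, F8A1, LINC01094, C5orf46, AL358852.1 and POT1-AS1, and SLC25A38 was below. CXCL8, the neutrophil-attracting chemokine, was at 73, 73.5, 114 and 92.9 CPM against 18.7 to 65.5 CPM, and did not pass (0.64, SE 0.231, adjusted p 0.947, edgeR). At 0.25 µM the genes included ANGPTL4, TUBA1A and BAIAP2 above and NPM1 and ALDH3A1 below. ANGPTL4, a secreted inhibitor of lipoprotein lipase, was at 962, 853, 941 and 933 CPM against 520 to 827 CPM.

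A reference other than the controls was used as well, the 16 libraries of the 4 other chemicals at the same dose. The 4 thiram libraries are the same under both references, so the results are not independent. It gave 0 calls at 0.025 µM, with 1097 genes (5.15%) at an unadjusted p under 0.05, and 0 at 0.25 µM, with 1266 (5.94%). Both counts are from edgeR's test, and DESeq2 was not run on this reference. At 2.5 µM it gave 14 calls (0.0657%), 13 higher (0.061%) and 1 lower (0.00469%). Of these, 6 were also called against controls: HSPA6, ARC, CRYAB, ATF3, GADD45G and RASD1. The side-by-side log2 fold changes, against other chemicals and against controls, were 3.92 and 4.04 for HSPA6, 7.70 and 7.09 for ARC, and 4.32 and 3.97 for ATF3. They were 5.23 and 4.23 for CRYAB, 4.75 and 2.54 for GADD45G, and 5.602 and 3.462 for RASD1.

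None of the other 5 genes called against controls passed against the other chemicals. Of those reported here, GNAS had a log2 fold change of 0.04 there (95% interval −0.13 to 0.21), THBS1 0.29 (0.12 to 0.47), IGFBP7 0.40 (0.17 to 0.62) and SLC30A1 0.51 (0.23 to 0.78, adjusted p 0.173, edgeR). The genes called only under this reference were RRAD, LCN2, TAGLN, LINC02757, PPDPF, MYL9 and IL32, higher, and RECQL, lower. Whether the fold change of any gene differs between the references was not tested. RRAD, a Ras-related GTPase that binds calcium channels, was at 2.13, 0, 6.62 and 11.8 CPM at 2.5 µM against 0 to 2.83 CPM in 48 libraries of the other chemicals at the 3 lower doses, and its fold change was 3.41 (SE 0.626, adjusted p 0.000543, edgeR). LCN2, an iron-binding acute phase protein, was at 1.14, 5.98, 6.16 and 6.95 CPM against 0 to 3.79 CPM, with a fold change of 3.14. The DMSO controls had LCN2 at 0 to 6.65 CPM, and the fold change against them was 0.87 (interval −0.001 to 1.739).

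**Figure D3:**
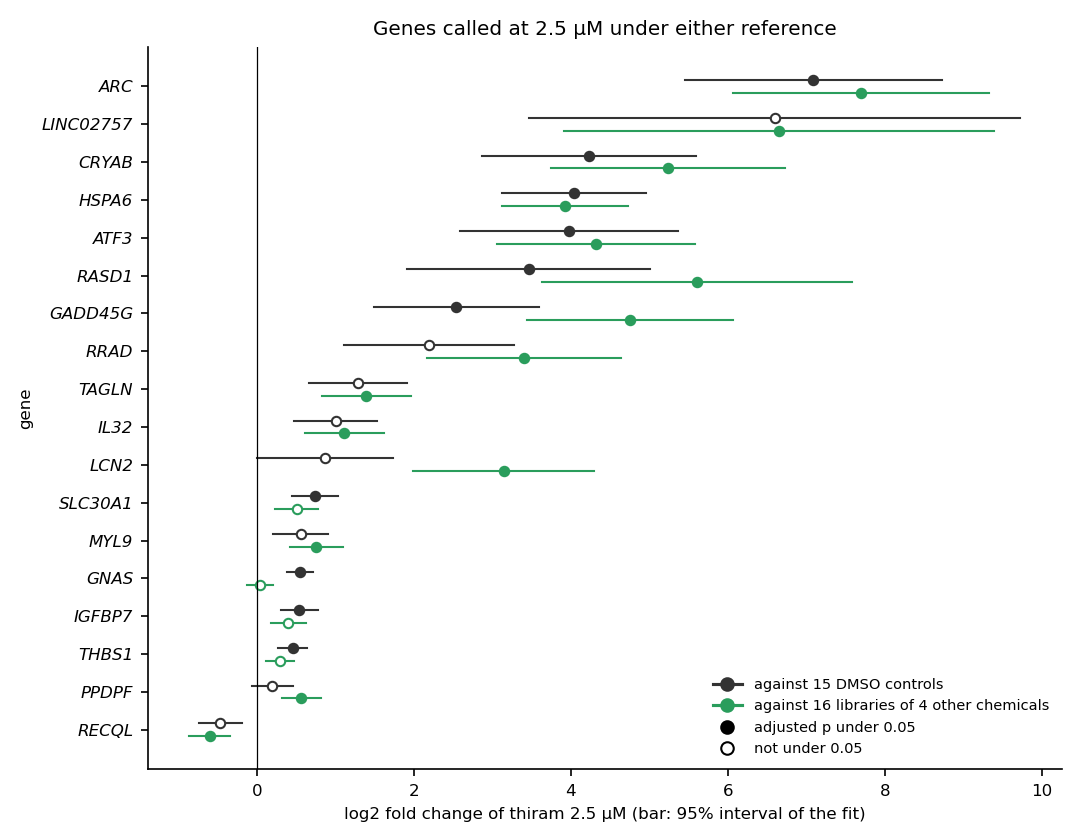
Log2 fold change of thiram 2.5 µM, with the 95% interval of the fit, against the 15 DMSO controls (black) and against the 16 libraries of the 4 other chemicals at 2.5 µM (green), for 18 of the 19 genes called under either. HSPA6, ARC, CRYAB, ATF3, GADD45G and RASD1 are filled under both references, while GNAS is at 0.55 under one and 0.04 under the other.

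Within thiram, 2.5 µM was set directly against 0.025 µM, which uses no control library. There were 4 calls, all higher (0.0188%), with 841 genes (3.95%) at an unadjusted p under 0.05, and DESeq2 called 0. HSPA6 was 4.78 higher (log2, SE 0.702, adjusted p 3.05e-06, edgeR), ARC 4.85 (SE 0.912, adjusted p 0.00749), GADD45G 4.40 (SE 0.921, adjusted p 0.0211) and TAGLN 2.37 (SE 0.462, adjusted p 0.00749). TAGLN, an actin-binding protein of contractile cells, was at 4.05, 2.44, 32.1 and 30.5 CPM at 2.5 µM and at 4.96, 3.79, 2.08 and 3.01 CPM at 0.025 µM. At 0.25 µM it was at 2.16, 8.06, 21.3 and 17.3 CPM. In the higher-numbered set TAGLN therefore stood higher at both upper doses, and in the lower-numbered set replicates 1 and 2 at 2.5 µM overlapped the lowest dose. MYL9, a myosin light chain, was 0.86 higher at 2.5 than at 0.025 µM (adjusted p 0.681, edgeR). DCP2, the mRNA decapping enzyme, was 0.85 lower (adjusted p 0.217), ZNF524 was 0.93 higher (adjusted p 0.383), and TWNK, the mitochondrial DNA helicase, was 0.73 higher (adjusted p 0.996). None of these 4 passed. Without replicate 4 of 2.5 µM the comparison of the doses gave 0 calls, and the replicate block left 2.

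The response at 2.5 µM differed between the pairs of replicates. Fitted within the lower-numbered set, 2 genes were called against controls, ARC higher (6.26, adjusted p 5.85e-05, edgeR) and NDUFA1, a subunit of respiratory complex I, lower (−0.58, adjusted p 0.0456). Fitted within the higher-numbered set, 166 were called, 155 higher and 11 lower. The same fit within the higher-numbered set gave 7 calls at 0.025 µM and 46 at 0.25 µM. With the other 4 chemicals of the higher-numbered set as the reference, 42 genes were called at 2.5 µM, all higher. That reference gave 7 calls at 0.025 µM and 4 at 0.25 µM. Within the lower-numbered set it gave 11, 0 and 1 calls as dose rose. The part of the controls in the difference between the sets was not tested. Against controls, HSPA6 had a log2 fold change of 0.43 in the lower-numbered set and 5.74 in the higher-numbered set. ATF3 had 2.46 and 7.6, and GADD45G −1.46 and 6.41. MT1X had −0.40 and 1.19, MT2A −0.32 and 0.48, MT1E −0.40 and 0.48, and TRIB3 0.02 and 0.70. Set directly against 0.025 µM within the higher-numbered set, 2.5 µM was 1.03 higher for MT1X (adjusted p 5.13e-05, edgeR), while the differences of 0.16 for MT2A and 0.22 for MT1E did not pass (adjusted p 1 for each). Against controls, the higher-numbered values of MT1X, MT2A, MT1E and TRIB3 passed (adjusted p 3.65e-08, 7.86e-07, 0.000519 and 0.00522, edgeR). Without replicate 4 of 2.5 µM the count over both sets fell from 11 to 2, namely ARC (6.43) and GNAS (0.53), and without replicate 3 of every dose it was 7.

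**Figure D4:**
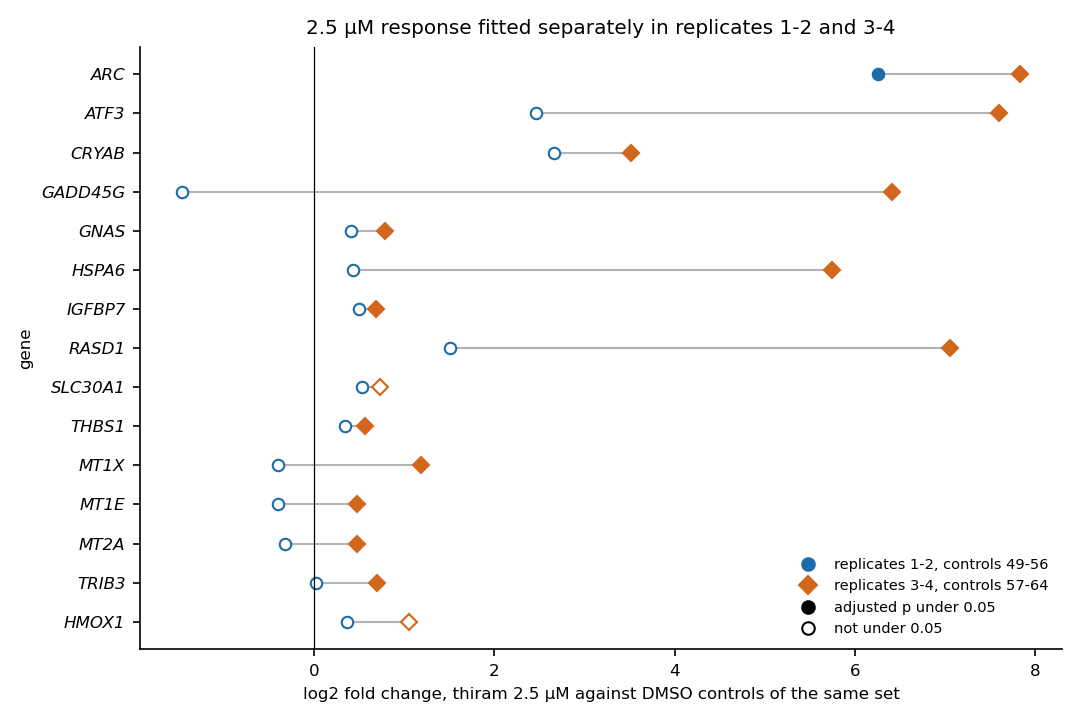
Log2 fold change of thiram 2.5 µM against DMSO controls, fitted separately in replicates 1 and 2 with controls 49 to 56 (blue circles) and in replicates 3 and 4 with controls 57 to 64 (orange diamonds), for 10 of the 11 called genes and 5 further genes. The orange symbol is to the right in every row, and the symbols of GADD45G, MT1X, MT1E and MT2A lie on opposite sides of 0.

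The difference between the sets was tested with an interaction term, with the controls' own difference between the sets as its reference. This term was added after the values had been seen. It gave 62 calls at 2.5 µM (0.291% of genes), 60 larger in the higher-numbered set, and 0 at 0.025 µM (1119 at an unadjusted p under 0.05) and 0 at 0.25 µM (1113) in edgeR's test, with DESeq2 not run on it. Of the 62, 25 had symbols beginning RPL or RPS, the large and small subunit ribosomal proteins, out of 298 such symbols tested (pseudogenes included), with differences of 0.40 to 1.01 on the log2 scale. Ribosomal protein genes have many near-identical pseudogenes, so their counts depend on how such reads were assigned. The 3 metallothionein genes MT1X (1.60, SE 0.287, adjusted p 0.00166), MT1E (0.91, adjusted p 0.0104) and MT2A (0.83, adjusted p 0.0104) were among them. RPS27 was at 426, 715, 763 and 829 CPM at 2.5 µM against 583 to 854 CPM in the lower-numbered and 399 to 640 CPM in the higher-numbered controls. NDUFA1 was at 127, 200, 243 and 252 CPM against 181 to 270 and 123 to 184 CPM. For both genes replicate 1 was the lowest of the 4 libraries at 2.5 µM and lay below all 8 controls of its set. HSPA6 had an interaction of 5.34 that did not pass (adjusted p 0.0585, edgeR), and that of ARC was 1.63 (adjusted p 1). Replicates 1 to 4 of 2.5 µM held 18632791, 12634542, 11223474 and 12887031 counts, and the higher-numbered controls held fewer counts (at most 4734045) than the lower-numbered (at least 15124358). The part of depth in these differences was not tested.

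Genes that 25 µM raised strongly were also followed at the lower doses. Only genes called at 25 µM against the 16 libraries of the other chemicals at 25 µM were eligible. They also needed an average log2 CPM of at least 3 over the whole plate, a floor that left out CRYAB (1.91). The 50 with the largest rise in that comparison were taken, a set chosen after seeing the data. The ranking uses no control and no lower-dose library, but the floor is an average that includes them. At 2.5 µM 46 of the 50 had a fold change above 0 against controls, with a median of 0.285 on the log2 scale and 6 called, beside 48.4% above 0 and a median of −0.01 for all genes. Against 0.025 µM 45 of the 50 were above 0, with a median of 0.345 beside 0.01 for all genes. At 0.25 µM 28 of the 50 were above 0 against controls and the median was 0.04, and at 0.025 µM 25 were above 0 with a median of 0.01. The 50 genes most lowered at 25 µM, taken with the same floor, had medians of −0.13, −0.05 and −0.12 at 0.025, 0.25 and 2.5 µM against controls. Of these 50, 11, 18 and 15 were above 0. For 2.5 against 0.025 µM 28 of these 50 were above 0 and their median was 0.03.

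By library, the mean log2(CPM + 1) of the 50 raised genes was 3.617 to 4.503 at 2.5 µM, with replicate 4 highest and replicate 3 next at 4.29. It was 3.49 to 3.74 at 0.25 µM, 3.503 to 3.601 at 0.025 µM and 7.61 to 8.31 at 25 µM. The controls ran from 3.44 to 3.62 in the lower-numbered and from 3.15 to 3.42 in the higher-numbered set. Among 48 libraries of the other chemicals at the 3 lower doses the values were 3.27 to 3.70 but for 1, PCB153 0.25 replicate 3, at 4.30. Replicate 4 of 2.5 µM thiram lay above all controls and all 48 libraries of the other chemicals at these doses. Replicate 3 lay above all controls and all but 1 of the 48. Replicate 1, at 3.663, was also above all controls, and replicate 2, at 3.617, was not.

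**Figure D5:**
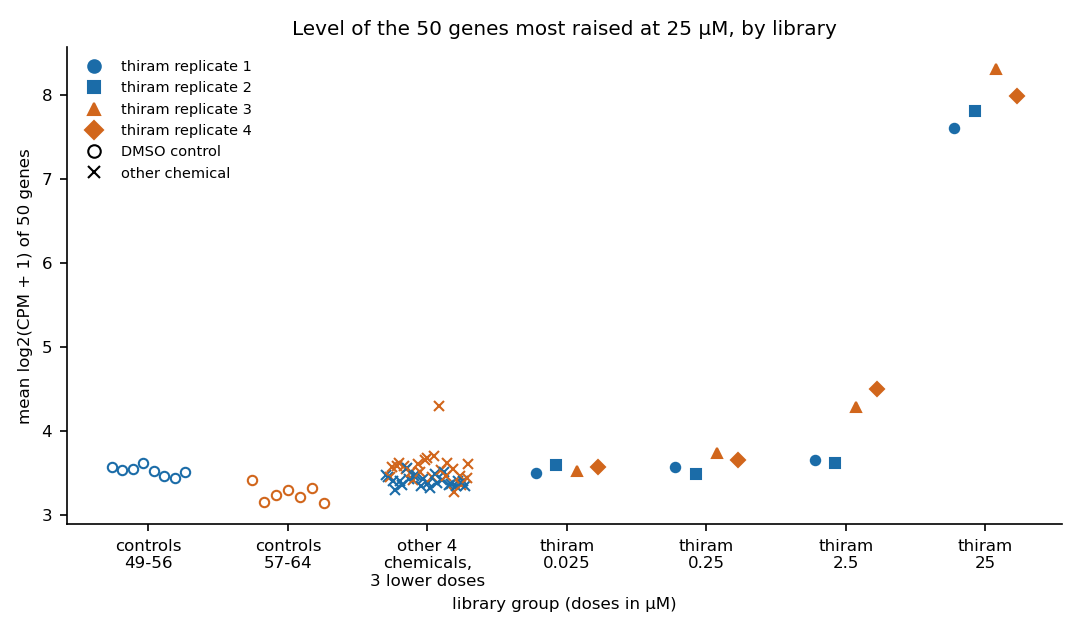
Mean log2(CPM + 1) of the 50 genes most raised at 25 µM in each library: DMSO controls by set, the other 4 chemicals at their 3 lower doses, and thiram at 4 doses. Replicates 3 and 4 at 2.5 µM reach 4.287 and 4.503, between the controls (at most 3.62) and 25 µM (at least 7.61).

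How far the 2.5 µM libraries were from the 25 µM level can be read from 6 of these genes that averaged under 1 CPM in controls and at least 50 CPM at 25 µM: ARC, HSPA6, GADD45G, RASD1, RRAD and ATF3. As a percent of the 25 µM mean, the median over the 6 was 0.364 in replicate 1, 0.194 in replicate 2, 1.44 in replicate 3 and 4.21 in replicate 4. The highest single value among the 6 was 5.34%, for ATF3 in replicate 4. CRYAB, with a control mean of 0.628 CPM, was not among the 6 because of the floor on average log2 CPM, and stood nearer its 25 µM level in replicate 4. It was at 0.468, 1.5, 4.2 and 18.1 CPM at 2.5 µM and at 88.4, 137, 83.9 and 113 CPM at 25 µM. HSPA6, whose mean at 25 µM was 1290 CPM, stood at 0.0444, 0.128, 1.08 and 3.7% of it in the 4 libraries, and ARC, whose mean was 907 CPM, at 0.659, 0.217, 0.679 and 1.85%. Directly tested, 25 µM was 6.55 higher than 2.5 µM for HSPA6 (log2, SE 0.202, adjusted p 1.81e-73, edgeR) and 6.94 higher for ARC (SE 0.209). SLC30A1 was 4.36 higher and CRYAB 4.30 higher. For 25 against 2.5 µM GNAS had a log2 fold change of −0.14 (interval −0.37 to 0.09) and IGFBP7 one of 0.11 (−0.22 to 0.44), and neither passed.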

How the data were processed

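RNA-seq counts per gene symbol were taken as the authors deposited them: whole-number counts, not normalized. Per the submitters' processing notes, STAR and featureCounts were used with GRCh38, with FastQC and MultiQC for quality. Which annotation and strand setting, and which versions, were used is not stated in those notes or in the labels, so antisense and overlapping genes cannot be separated. Libraries were made from lysates in a pooled, barcoded plate format, per the labels' protocols. All 95 libraries of the plate were fitted together with edgeR 4.0.16 (R 4.3.3): a filter by group (minimum count 10, minimum total 15), TMM scaling, 1 mean per chemical and dose, the set of library numbers as a term, the quasi-likelihood F test (top 5% of genes for the dispersion), and Benjamini-Hochberg adjustment over 21307 genes at 0.05. CPM uses the TMM-scaled library size. SE is the fold change divided by the root of F. DESeq2 1.42.0 and other settings served as alternatives. The fit was tested on simulated counts. No pair of libraries of 1 group agreed within sampling noise: chi-square per degree of freedom was at least 11.8 over 105 pairs of controls, 13.3 over 24 of thiram and 12.8 over 96 of the other chemicals. Promoter windows came from RefSeq (GRCh38.p14) by symbol.

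The members, the 20 gene lists, the 26 always-named genes and the tests were chosen with earlier results of these data known. Named genes were every called gene, the 5 smallest p-values among genes whose average log2 CPM was 3 or more where fewer than 5 were called, and the 26 genes, and 2 of the genes so named are not reported here. Intervals are 95% intervals of the fitted log2 fold change, with an SE from the spread between libraries, and are not a range of single libraries. The interaction, the set of 50 genes, the 6 near-silent genes and the libraries left out singly were chosen after seeing the data. CXCL8, FOSB, ANGPTL4, RPS27 and NDUFA1 were named after their values were seen, as were the genes outside the control range.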

Additional observations from a re-analysis of the deposited data

Results flagged for a closer look

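In 5 of 99 groups of 4 libraries checked (5.05%), 1 library stood apart from the other three by Dixon's ratio, where chance flags about 1 in 20 groups. GADD45G was at 26 CPM in replicate 4 of 2.5 µM, with the other libraries at 0 to 2.61 CPM. CA9 was at 1.14 CPM in replicate 3 of 0.25 µM, with the others at 8.54 to 9.68 CPM. NQO1 was at 679 CPM in replicate 2 of 0.25 µM (others 834 to 850), STAT3 at 131 CPM in replicate 4 of 0.025 µM (others 142 to 143) and HSPA1B at 14.2 CPM in replicate 1 of 0.025 µM (others 8.52 to 9.11).

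The fold change at 2.5 µM differed between the sets of replicates, by an interaction term in edgeR's quasi-likelihood test with Benjamini-Hochberg adjustment, for 5 of the named genes. The difference, higher-numbered minus lower-numbered set, was 7.89 on the log2 scale for GADD45G (adjusted p 0.0326), 2.90 for TAGLN (0.0384), 0.83 for MT2A (0.0104), 0.91 for MT1E (0.0104) and 1.60 for MT1X (0.00166).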

How the results depend on the processing

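ARC at 2.5 µM kept its call in all 14 alternatives (6.26 to 7.83 on the log2 scale). The other 10 genes called at that dose lost theirs in 2 to 8 alternatives each. For genes called in neither analysis a change of sign was not counted as a reversal.

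Against controls, counts of calls were as follows. With no filter on low counts there were 7, 23 and 30 calls at 0.025, 0.25 and 2.5 µM. Within the lower-numbered set there were 1, 4 and 2, and within the higher-numbered set 7, 46 and 166. DESeq2 gave 1, 1 and 4. With no set term there were 1 at 0.25 and 7 at 2.5 µM. At 0.25 µM the other chemicals as reference gave 0, only thiram and controls in the fit 9, and leaving out PCB153 0.25 replicate 3 gave 7, among them AKR1C2. Leaving out each replicate number in turn gave 0 at 0.025 µM, 1 to 2 at 0.25 µM and 2 to 13 at 2.5 µM, and without Thiram 2.5 replicate 4 alone 2 remained.

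For 2.5 against 0.025 µM there were 2 calls with no set term, 11 with no filter, 0 and 20 within the sets, 0 by DESeq2, 0 to 5 with a replicate number left out and 0 without Thiram 2.5 replicate 4. For 25 against 2.5 µM there were 2657 and 3021 within the sets, 3279 to 3871 with a number left out, and RLE scaling split the calls into 2756 higher and 1791 lower.

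Against the other 4 chemicals, with no filter there were 2, 17 and 58 calls as dose rose. Within the lower-numbered set there were 11 at 0.025 and 1 at 2.5 µM, and within the higher-numbered set 7, 4 and 42. With no set term there were 9 at 2.5 µM. Leaving out a replicate number gave 0 to 2 at 0.25 µM and 2 to 25 at 2.5 µM, leaving out PCB153 0.25 replicate 3 gave 1 at 0.25 µM, and leaving out Thiram 2.5 replicate 4 gave 2 at 2.5 µM.

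Reversals at 2.5 µM were GADD45G against controls, −1.46 within the lower-numbered set, −0.06 without replicate 4 of every dose (3.04 at most with another number left out) and −0.05 without Thiram 2.5 replicate 4, and, within the lower-numbered set against 0.025 µM, GADD45G (−1.12) and TAGLN (−0.33). The cause of these changes was not tested, and fits within a set also rest on fewer libraries.

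The replicate numbers did not pair the libraries: deviations of same-numbered libraries correlated over 0.1 in 11 of 12 pairs (0.058 to 0.341), no more than those of the other number of the same set (0.127 to 0.328). With a replicate block 2 genes were called for 2.5 against 0.025 µM and 4313 for 25 against 2.5 µM. Control libraries of 2313091 to 4734045 counts limit what can be seen of genes near 1 CPM.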
